A study of Homo sapiens with 20 samples.

Results

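The regions described here are the ATAC-seq peaks on human chromosomes 11 and 13 in SW872 cells, and the way their number changes along each chromosome. All peaks that 7 peak lists place on either chromosome were taken, which gave 135249 of 1407450 peaks, 91276 on chromosome 11 and 43973 on chromosome 13. Per list, the members numbered from 13710 in TFE3 to 22797 in YAP5SA. Both chromosomes were chosen by their weak-peak counts along the sequence, which earlier results had shown, so the counts, the steps between them and the differences between lists are given as a description, with no test.

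In ATAC-seq a transposase cuts accessible DNA and leaves sequencing adapters behind, so that open chromatin yields many fragments. The study asked whether 2 fusion proteins of the vascular tumour epithelioid hemangioendothelioma, TAZ-CAMTA1 and YAP-TFE3, change accessible chromatin. SW872 is an established human liposarcoma line, used in place of a line of that tumour. In all groups the cells carried a pBabeNeo retroviral vector and were kept as pooled lines selected with G418, and 50000 cells were transposed per library.

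The 7 groups were the empty vector (EV), TAZ4SA, YAP5SA, CAMTA1, TFE3, TAZ-CAMTA1 and YAP-TFE3. TAZ4SA and YAP5SA are hyperactive forms of the Hippo pathway coactivators TAZ and YAP, in which serines that the LATS kinases phosphorylate are replaced by alanines. CAMTA1 and TFE3 are the full-length transcription factors that give the fusions their C termini. The titles of the YAP-TFE3 libraries name Yap5SA as the YAP portion. There were 20 libraries, 3 per group and 2 for TFE3, and EV replicate 3 is titled a redo. Each group has 1 list, which carries no value per library, so the spread between libraries and the sequencing depth could not be taken into account.

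ATAC-seq peaks mark promoters, enhancers and other sites where nucleosomes are displaced, and they are dense where genes are dense. Fragments also come from closed chromatin, in proportion to how much DNA of a region the cells hold, and short peaks near the calling threshold can lie on such background. Liposarcoma genomes commonly carry gained, lost and amplified segments. Chromosome 11 is rich in genes and holds the gene of YAP1 itself, whereas chromosome 13 is poor in genes, holds RB1 and the Hippo kinase gene LATS2, and has a short arm of repeats that yields no peaks. Copy number was not measured in these data, and gains or losses of DNA cannot be told apart from differences in chromatin by peak counts alone. Coordinates are in hg19 (GRCh37), for which no annotation was used, so genes were not assigned to the regions.

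Each peak was called weak where the −log10 p of its summit, the peak caller's own value, was under 5, and strong at 5 or above. On chromosome 11, 52144 peaks were weak (57.1%, Wilson 95% interval 56.8 to 57.4), and on chromosome 13, 28899 were weak (65.7%, interval 65.3 to 66.2). The intervals cover counting error only. Close to the threshold, 2668 member peaks lay within 0.1 below it and 2632 within 0.1 above it. On either chromosome, the highest weak value of a list was 4.9766 in TFE3 and between 4.9965 and 4.9996 in the others, and the lowest strong value lay between 5.0002 and 5.0042.

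Chromosome 13 took very different shares of the weak peaks in the 7 lists. It held 5.14% of the weak peaks of EV, 5.26% of TAZ4SA, 4.19% of YAP5SA, 3.15% of CAMTA1, 2.54% of TFE3, 3.03% of TAZ-CAMTA1 and 3.25% of YAP-TFE3. EV, TAZ4SA and YAP5SA thus lay above the other 4 lists, without overlap. Of the strong peaks, chromosome 13 held between 2.11% (TFE3) and 2.76% (TAZ4SA), a narrower range with the same 3 lists on top. Chromosome 11 held between 6.56% (TFE3) and 7.07% (EV) of the weak peaks.

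For position along the chromosomes, peaks were counted in 1-Mb bins by their summits. A bin was used where the peaks of the 7 lists together fell in at least 5 of its 10 sub-windows, which kept 121 of 135 bins on chromosome 11, 83 of 116 on chromosome 13 and 2387 of 2894 on all autosomes. Of the bins of chromosome 13, 22 held no peak at all. The count of each bin, plus 0.5, was divided by the list's own median over used autosomal bins, plus 0.5, and is given on the log2 scale as the scaled density, so that 0 is the typical bin of that list.

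Over the whole chromosome, the median bin of chromosome 11 was denser in weak peaks than the median bin of the 20 other autosomes, by 0.53 on the log2 scale (range over lists 0.45 to 0.64), the fifth highest of 22 autosomes. The median bin of chromosome 13 lay below the other autosomes, with a log2 difference of -0.66 (range -0.79 to -0.51), rank 20. Both were also uneven, which restates how they were chosen. The SD of the scaled weak-peak density among bins was 1.77 on chromosome 13 and 1.69 on chromosome 11, the highest and the second highest of the 22 autosomes. Nearly empty bins add to this SD on the log2 scale, such as the bin at 87 Mb of chromosome 13 (-4.35).

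The densest bins of chromosome 13 all lay in a single stretch near its end. The bin at chr13:100000001-101000000 held 403 weak peaks in EV, 313 in TAZ4SA, 382 in YAP5SA, 327 in CAMTA1, 160 in TFE3, 352 in TAZ-CAMTA1 and 340 in YAP-TFE3, on average 9.22 times the list median. The bins at chr13:98000001-99000000 and chr13:101000001-102000000 followed with 8.56 and 6.77 times the list median. At the other extreme among used bins, those that start at 87, 66 and 85 Mb held 10, 13 and 14 weak peaks in all 7 lists together. All 3 of these sparse bins lay before the dense stretch.

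**Figure D1:**
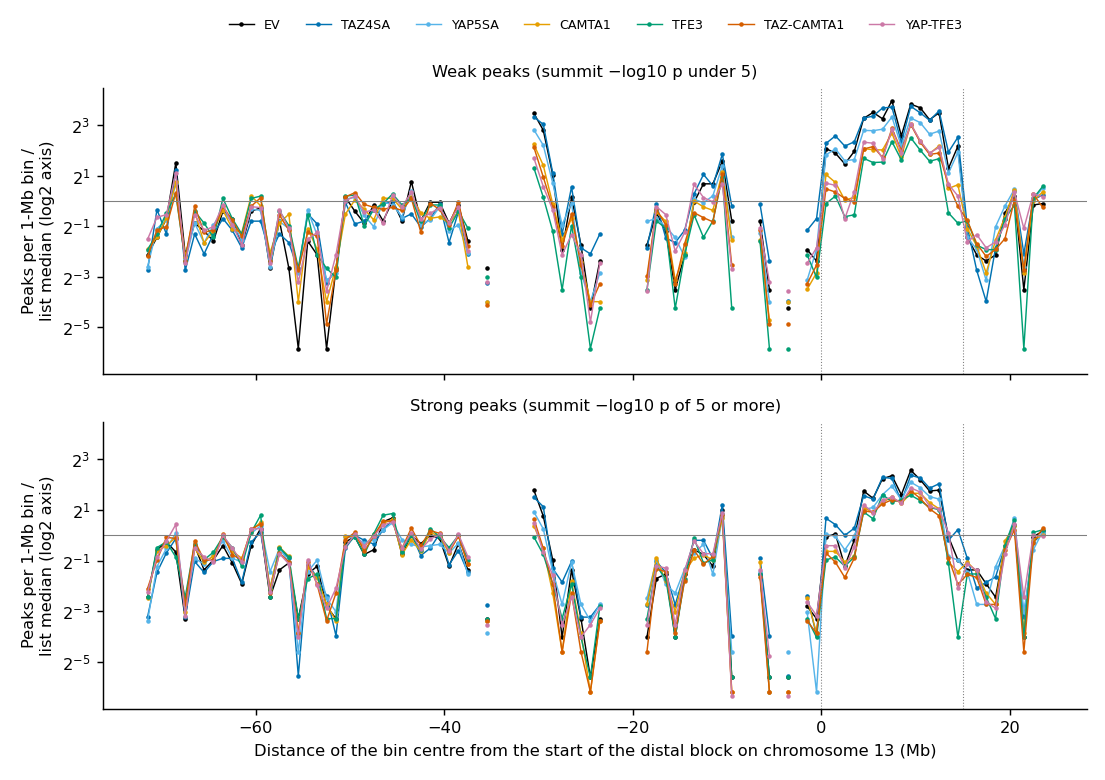
Peaks per 1-Mb bin on chromosome 13 divided by the list's median bin (vertical axis, log2 scale, 1 is the median), for weak peaks above and strong peaks below, against the distance of the bin from the start of the distal block in Mb. Each point is 1 used bin of 1 list, gaps are bins left out, and the dotted lines mark the start and end of the distal block: between them the weak peaks of EV, TAZ4SA and YAP5SA rise furthest, and the lists lie closer together for strong peaks.

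The mean profile of the 7 lists was cut into segments of even density, and a boundary counted as a step where neighbouring segments differed by at least 0.5 on the log2 scale. On chromosome 13, 3 of 82 boundaries between used bins were steps and on chromosome 11, 8 of 120, beside 2.22% of the boundaries on the other autosomes (48 of 2163). Since the chromosomes were chosen for such steps, nothing is read from these counts.

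Chromosome 13 fell into 4 segments. From 19 to 85 Mb the mean scaled weak-peak density was -1.04, from 85 to 91 Mb it was -3.28, from 91 to 106 Mb it was 1.92, and from 106 Mb to the last bin it was -1.17. The stretch from 91 to 106 Mb is called the distal block below. Its start was the largest of the 59 steps on all autosomes, 5.20 on the log2 scale or 36.7-fold, with each list between 4.26 (YAP-TFE3) and 5.78 (EV). This size rests on the 4 used bins from 85 to 91 Mb, which are nearly empty of peaks of either kind: with a segmentation penalty of 6 the step was 3.11, and with bins of 500 kb or lists of equal length the largest step of the chromosome was 3.28 at 104.5 Mb or 2.89 at 106 Mb. At the 91 Mb boundary strong peaks rose by 5.16.

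At the end of the distal block the 2 kinds of peak parted. Weak peaks dropped by 3.10 on the log2 scale and strong peaks dropped by 1.89. The drop of weak peaks was largest in TAZ4SA (-4.24), EV (-4.12) and YAP5SA (-3.42), and smaller in CAMTA1 (-2.64), TAZ-CAMTA1 (-2.61), YAP-TFE3 (-2.34) and TFE3 (-2.31). All 7 lists dropped, and the first 3 did not overlap with the rest.

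Placed between windows of 100 kb, both edges of the distal block were abrupt. At its end, at 106 Mb, the 500 kb before the edge held 517 weak peaks over the 7 lists and the 500 kb after it held 23, a 22.5-fold difference, whereas strong peaks numbered 79 and 22. EV had 121 weak peaks before this edge and 1 after it, TAZ4SA 114 and 4, YAP5SA 136 and 5, CAMTA1 58 and 3, TAZ-CAMTA1 34 and 4, YAP-TFE3 42 and 2, and TFE3 12 and 4. Every list fell there. At the start of the block, at 91.3 Mb, weak peaks went from 41 to 400 and strong peaks from 28 to 114.

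**Figure D2:**
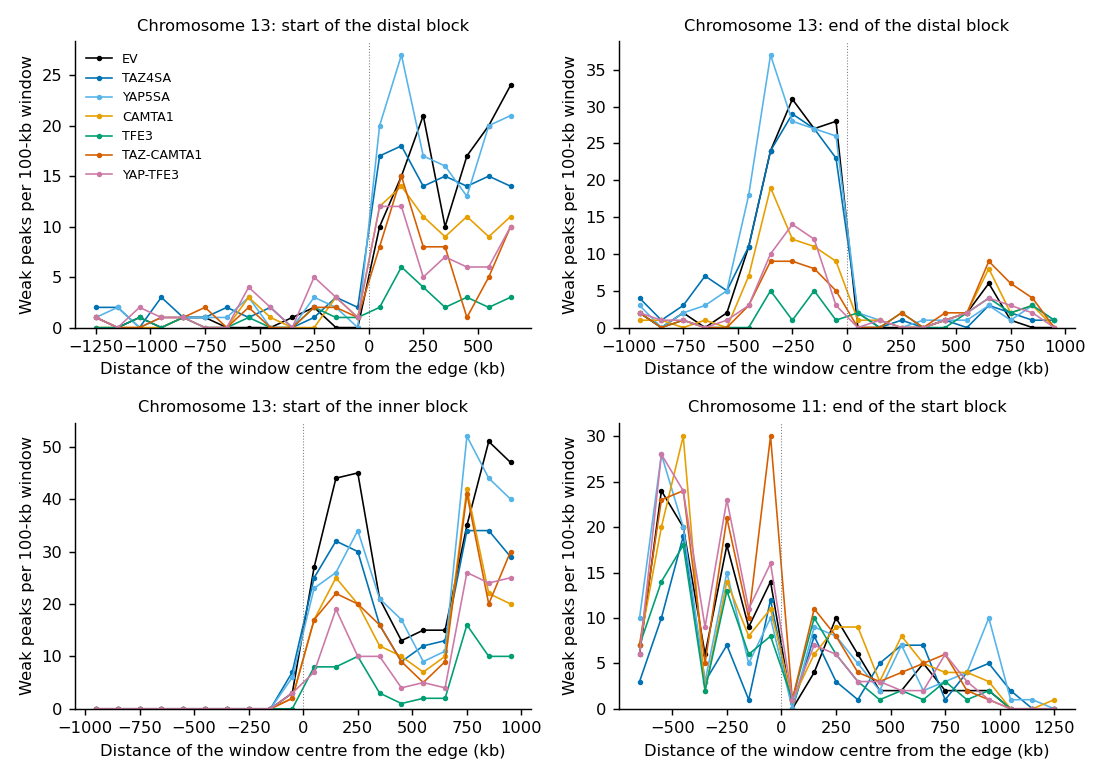
Weak peaks per 100-kb window (vertical axis, count) against the distance of the window centre from 4 edges in kb, 1 line per list. At the end of the distal block EV, TAZ4SA and YAP5SA drop from above 20 peaks per window to 2 or fewer within 1 window, whereas TFE3 starts from 5 or fewer, and at the chromosome 11 edge the 7 lists run together.

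The distal block was itself uneven. Its middle, from 95 to 104 Mb, held 314 weak peaks per Mb in EV and 104 in TFE3, the highest and the lowest of the lists. The first part, from 91 to 95 Mb, held 103 per Mb in EV and 23.8 in TFE3, and the last part, from 104 to 106 Mb, held 98 and 17.5. Relative to the other autosomes, TAZ4SA was highest in both of these, at 3.66 and 3.44 times. Over all lists, weak peaks were 77.3% of the peaks in the first part, 71.0% in the middle and 80.8% in the last, so that the flanking parts were sparser than the middle and weighted more towards weak peaks.

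Within the distal block, the number of weak peaks was 3433 in EV (exact Poisson 95% interval 3319 to 3550), 2949 in TAZ4SA, 3399 in YAP5SA, 2061 in CAMTA1, 1063 in TFE3 (1000.1 to 1129), 2196 in TAZ-CAMTA1 and 2197 in YAP-TFE3. YAP5SA, CAMTA1, TAZ-CAMTA1 and YAP-TFE3 are long lists, so each list was set against its own density on the used bins of the other autosomes. Relative to that, weak peaks per Mb were 5.93 times as many in EV, 6.06 in TAZ4SA, 4.44 in YAP5SA, 2.85 in CAMTA1, 2.07 in TFE3, 2.76 in TAZ-CAMTA1 and 2.97 in YAP-TFE3. The block was denser than elsewhere in every list, and its excess in EV, TAZ4SA and YAP5SA did not overlap with that in the other 4.

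Strong peaks followed the same order over a smaller range. They were 2.31 times as dense as on the other autosomes in EV, 2.40 in TAZ4SA, 1.88 in YAP5SA, 1.49 in CAMTA1, 1.34 in TFE3, 1.37 in TAZ-CAMTA1 and 1.61 in YAP-TFE3. The share of weak peaks in the block was accordingly 77.4% in EV (Wilson interval 76.2 to 78.6), 74.7% in TAZ4SA, 74.6% in YAP5SA, 68.9% in CAMTA1, 64.7% in TFE3 (62.4 to 67.0), 71.6% in TAZ-CAMTA1 and 66.8% in YAP-TFE3. Over the used bins of other autosomes it ran from 52.2% (YAP-TFE3) to 57.3% (EV), below the block in each list.

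**Figure D3:**
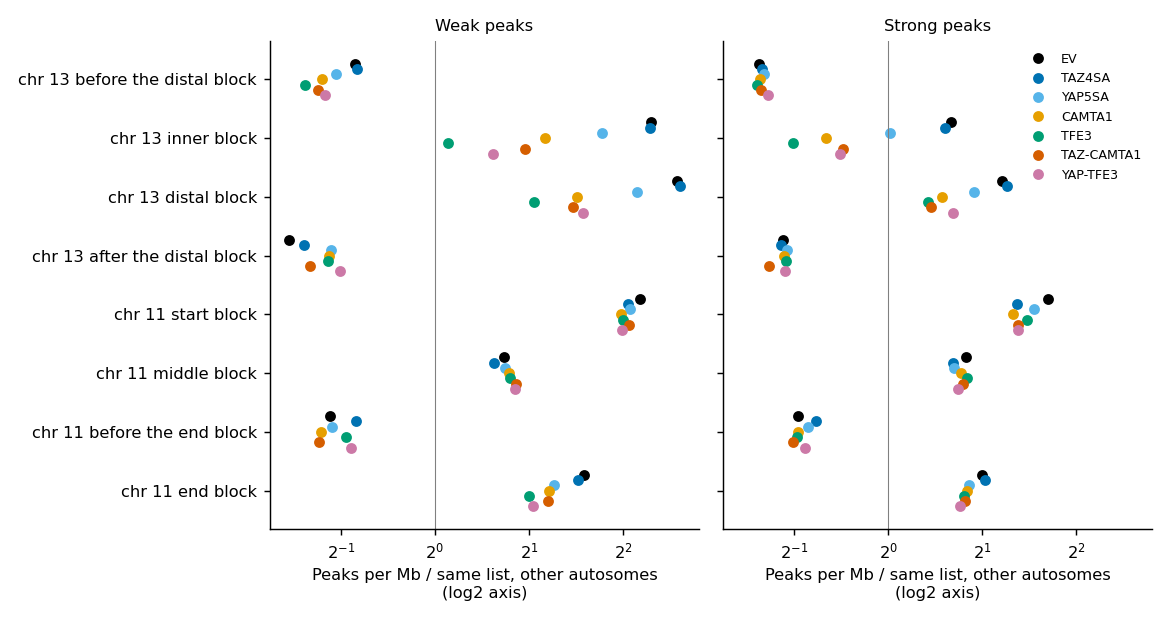
Weak (left) and strong (right) peaks per Mb in 8 regions of chromosomes 13 and 11, divided by the density of the same list on the other autosomes (horizontal axis, log2 scale, 1 is equal). Region lengths count every bin, whereas the other autosomes count used bins only. Each point is 1 list: the points spread widely in the distal and inner blocks of chromosome 13, from 2.07 to 6.06 for weak peaks of the distal block, and lie between 3.94 and 4.53 in the chromosome 11 start block.

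Weak peaks of the distal block were close in width to those elsewhere, and strong peaks were narrower. The median weak peak measured 100 bp in EV there and 102 bp on the other autosomes, and between 100 and 116 bp over the 7 lists. The median strong peak measured 442.5 bp in EV against 523 bp, and 563 bp against 606 bp in TFE3. Strong peaks were also lower in the block, where the median summit −log10 p of strong peaks was 5.93 in EV against 6.79 on the other autosomes, and 6.55 against 6.83 in TFE3. Their median area under the curve was also smaller, at 366 against 567 in EV and 538 against 717 in TFE3.

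Peaks of the distal block were shared less between lists than those on the other autosomes. Merging overlapping peaks of all lists gave 8595 sites in the distal block, and 719 of them (8.37%) were shared by all 7 lists, whereas 55.7% came from a single list. On the other autosomes 16.5% of sites were in all 7 lists and 41.9% in 1. Among the 4784 sites of a single list in the block, 1164 were of EV, 1222 of TAZ4SA, 1260 of YAP5SA and 340 of CAMTA1. TFE3 had 27, TAZ-CAMTA1 332 and YAP-TFE3 439. The other autosomes had 136076 sites of a single list. Of these, 9657 were of EV, 14974 of TAZ4SA, 34070 of YAP5SA and 18634 of CAMTA1. A further 1337 were of TFE3, 30963 of TAZ-CAMTA1 and 26441 of YAP-TFE3. In both places YAP5SA had the most and TFE3 the fewest, but the lists between them changed order. EV and TAZ4SA each had more than CAMTA1, TAZ-CAMTA1 and YAP-TFE3 in the distal block, and fewer on the other autosomes.

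Sharing was lower than on the other autosomes in the 3 lists with the densest block. Of the weak EV peaks in the block, 66.6% (Wilson interval 65.0 to 68.2) overlapped a peak of any other list by at least 1 bp, against 88.8% on the other autosomes. For TAZ4SA these shares were 60.6% and 80.05%, and for YAP5SA 64.2% and 72.5%. For TAZ-CAMTA1 the share was higher in the block, 84.9% against 73.8%, and so it was for YAP-TFE3, 80.6% against 76.9%. CAMTA1 had 83.6% and 82.7%, and TFE3 97.5% and 98.2%.

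Sites open in all 7 lists were weaker in the distal block than elsewhere. Their median area under the curve was 0.66 times that on the other autosomes in EV, 0.61 in TAZ4SA, 0.43 in YAP5SA, 0.31 in CAMTA1, 0.34 in TFE3, 0.38 in TAZ-CAMTA1 and 0.40 in YAP-TFE3. The sites of the block were thus lower in signal in every list. Before the block, from 19 to 91 Mb, the same ratio ran from 0.75 to 0.90, and on chromosome 11 as a whole from 1.00 to 1.10. Low signal was not particular to the distal block: in the shorter dense stretch from 60 to 63 Mb, described below, the ratio was 0.74 in EV and between 0.21 (TFE3) and 0.55 (TAZ4SA) in the other lists.

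Weak and strong peaks rise and fall together along the genome, so steps were also sought after a linear trend of weak on strong density had been removed. This left 26 steps on all autosomes, with 4 on chromosome 13 and 2 on chromosome 11, beside 0.925% of boundaries on the other autosomes (20 of 2163). On chromosome 13 these were a rise at 60 Mb of 1.59 on the log2 scale, the largest of the 26, a drop at 66 Mb (-1.05), a rise at 81 Mb (0.96) and a drop at 106 Mb (-1.31), the second largest. The rise at 91 Mb, where both kinds of peak moved alike, was no longer a step.

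The rise at 60 Mb marked another, shorter dense stretch, from 60 to 63 Mb, called the inner block here. Its limits were set by hand and did not come from the segmentation. The main segmentation left it inside the segment from 19 to 85 Mb, and the one without the trend inside 60 to 66 Mb. It held 568 weak peaks in EV, 475 in TAZ4SA, 522 in YAP5SA, 325 in CAMTA1, 113 in TFE3, 308 in TAZ-CAMTA1 and 227 in YAP-TFE3. Relative to the other autosomes its weak-peak density was 4.91 times in EV, 4.88 in TAZ4SA and 3.41 in YAP5SA, but 2.25 in CAMTA1, 1.94 in TAZ-CAMTA1, 1.53 in YAP-TFE3 and 1.10 in TFE3. Strong peaks were denser than elsewhere in EV (1.59) and TAZ4SA (1.52), level in YAP5SA (1.02) and sparser in the other 4 lists (0.50 to 0.72).

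Both ends of the inner block were also abrupt. The 500 kb before its start at 60 Mb held 23 weak peaks over the 7 lists and the 500 kb after it 631. Across its end at 62.3 Mb the number went from 401 to 33. EV went from 3 to 150 at the start and from 87 to 9 at the end. TFE3 went from 0 to 30 and from 12 to 1, so the block was also present there, on fewer peaks.

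Next to the distal block, the remaining 9 used bins of chromosome 13 were sparser than the other autosomes in every list. From 106 Mb on, weak peaks per Mb relative to the other autosomes were 0.34 in EV, 0.38 in TAZ4SA, 0.47 in YAP5SA, 0.46 in CAMTA1, 0.45 in TFE3, 0.40 in TAZ-CAMTA1 and 0.50 in YAP-TFE3. EV was the lowest of the 7 on this measure and the second highest in the distal block, whereas by the mean scaled density of the bins TFE3 (-1.38) lay just below EV (-1.35).

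For the difference from EV, bins were counted where the scaled weak-peak count was at least 1.5 times higher or lower than in EV. All 6 of these comparisons share the EV list. In CAMTA1, 35 of the 83 bins of chromosome 13 were lower and 7 were higher, beside 12.8% lower and 9.64% higher over all autosomes. TFE3 had 36 lower and 9 higher, beside 14.7% and 10.3%. TAZ-CAMTA1 had 31 lower and 9 higher, beside 15.2% and 8.92%. These 3 lists were thus lower than EV in at least 37.3% of the bins of chromosome 13.

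YAP-TFE3 had 23 lower and 14 higher bins on chromosome 13, beside 12.5% and 13.1%. YAP5SA had 16 lower and 13 higher, beside 8.0% and 11.8%. TAZ4SA had 9 lower and 21 higher, beside 9.05% and 18.2%. In the distal block, all 15 bins were lower than in EV in CAMTA1, TFE3 and YAP-TFE3, 14 in TAZ-CAMTA1, 4 in YAP5SA and 0 in TAZ4SA.

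Chromosome 11 had more steps, and at most of them weak and strong peaks moved alike. Its boundaries lay at 20, 32, 37, 43, 49, 57, 80 and 111 Mb, and in each of the 8 steps all 7 lists moved the same way. The largest was the rise at 43 Mb, 3.68 for weak and 3.81 for strong peaks. At 20 Mb weak peaks dropped by 2.53 and strong peaks by a like amount (-2.48), and at 111 Mb weak peaks rose by 2.47 and strong peaks by 2.21. The steps at 49 and 57 Mb, which bound a segment of only 3 used bins, differed most between the kinds (-3.31 against -4.26 and 3.42 against 4.32).

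**Figure D4:**
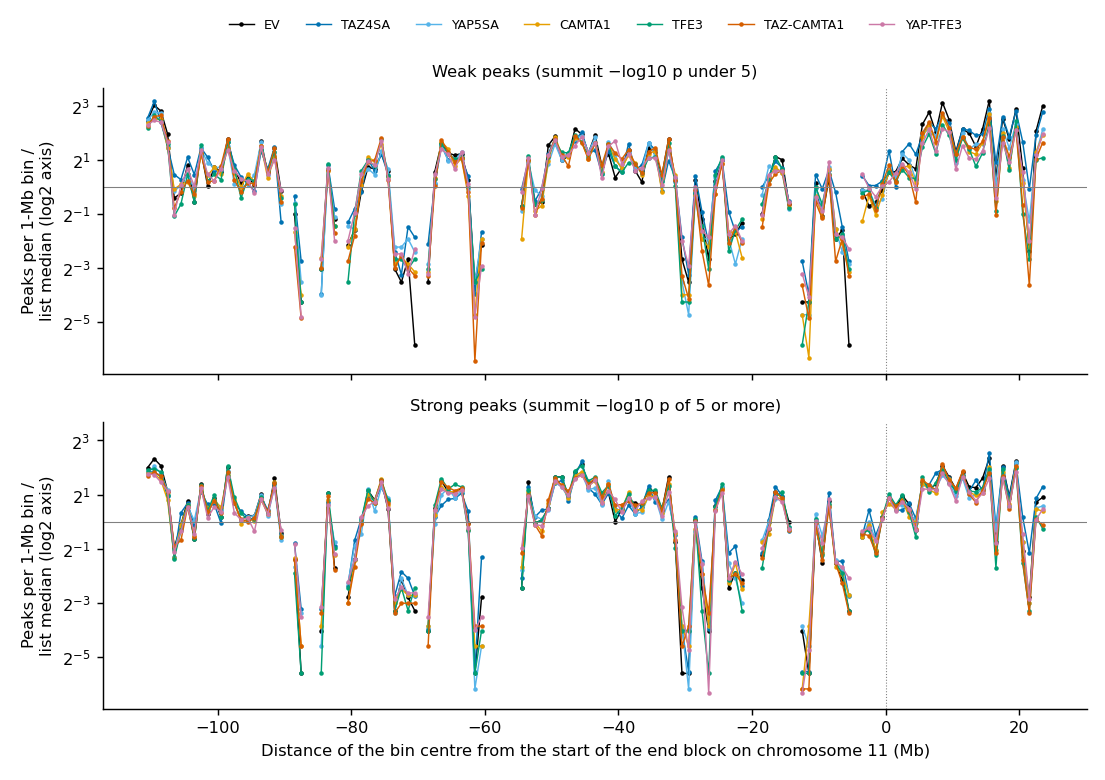
Peaks per 1-Mb bin on chromosome 11 divided by the list's median bin (vertical axis, log2 scale), weak peaks above and strong peaks below, against the distance of the bin from the start of the end block in Mb. Each point is 1 used bin of 1 list: dense and sparse stretches alternate at the same places in all 7 lists and in both kinds of peak. Among the dense stretches the lists part most in the end block, to the right of the dotted line. On few peaks they part further in the sparse stretch at 37 to 43 Mb, from a mean of -3.71 in EV to -2.21 in TAZ4SA for weak peaks.

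Between the steps, dense and sparse segments alternated on chromosome 11. The segments at 0 to 20, 32 to 37, 43 to 49, 57 to 80 and 111 to 135 Mb had mean scaled densities of 0.90, 0.77, 0.87, 0.98 and 1.30. Those at 20 to 32, 37 to 43, 49 to 57 and 80 to 111 Mb had -1.63, -2.81, -2.44 and -1.18. Its densest bins were chr11:1000001-2000000, chr11:126000001-127000000 and chr11:119000001-120000000, with 6.70, 6.33 and 6.11 times the list median. Its sparsest used bins start at 99, 49 and 98 Mb and held 7, 10 and 13 weak peaks over all lists. Among the bins left out on this chromosome, 3 held no peak at all.

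The start of chromosome 11 was also dense, but it differed less between lists than the distal block of chromosome 13. Its limit at 4 Mb was set by hand. The main segmentation kept it inside the segment from 0 to 20 Mb, and the one without the trend inside 0 to 5 Mb. From 0 to 4 Mb, weak peaks per Mb relative to the other autosomes were 4.53 times in EV, 4.15 in TAZ4SA, 4.21 in YAP5SA, 3.94 in CAMTA1, 4.01 in TFE3, 4.17 in TAZ-CAMTA1 and 3.97 in YAP-TFE3. In none of the 6 comparisons with EV did any of its 4 bins differ by 1.5 times (0 of 4 in each). The 7 lists thus ran close together over this dense stretch. The block ended at 3.7 Mb, with 447 weak peaks in the 500 kb before and 159 in the 500 kb after that edge.

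The end block of chromosome 11, from 111 Mb to the last bin, resembled the distal block of chromosome 13 in part. EV, TAZ4SA and YAP5SA again lay above the other 4 lists and TFE3 was lowest, but the order among the rest differed. Its weak-peak density relative to the other autosomes was 3.00 in EV, 2.88 in TAZ4SA, 2.40 in YAP5SA, 2.32 in CAMTA1, 2.29 in TAZ-CAMTA1, 2.05 in YAP-TFE3 and 2.00 in TFE3. Of its 24 bins, 16 were lower than in EV in YAP-TFE3, 14 in TFE3, 10 in TAZ-CAMTA1, 6 in CAMTA1, 4 in YAP5SA and 0 in TAZ4SA, whereas 5 were higher in TAZ4SA. Over all of chromosome 11, between 3 bins in TAZ4SA (2.48%, beside 9.05% over all autosomes) and 23 in TAZ-CAMTA1 (19.01%, beside 15.2%) of 121 were lower. Between 4 in CAMTA1 (3.31%, beside 9.64%) and 27 in TAZ4SA (22.3%, beside 18.2%) were higher. The density rose within the block at 116 Mb, from 177 to 506 weak peaks across that edge.

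Set among the dense segments of all autosomes, the distal block stood out by its place and by the spread of its lists. Of 81 segments on all autosomes, 10 had a mean scaled weak-peak density of 1 or more. Of these, 9 reached the first or last used bins of their chromosome, and the distal block of chromosome 13 did not. Among these 10 the distal block ranked 3 by mean and 1 by the range over lists (2.00 on the log2 scale). The first 18 Mb of chromosome 5 (1.39) and the chromosome 11 end block (0.90) came next by range. A wide spread was not particular to it on chromosome 13. The inner block, no segment of its own, ran from 4.91 times the other autosomes in EV to 1.10 in TFE3. On few peaks, the segment from 85 to 91 Mb ran from -2.05 in TAZ4SA to -4.21 in TFE3. In 8 of the 10 segments EV, TAZ4SA and YAP5SA all lay above the other 4 lists, so that this order is not particular to chromosomes 11 and 13.

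**Figure D5:**
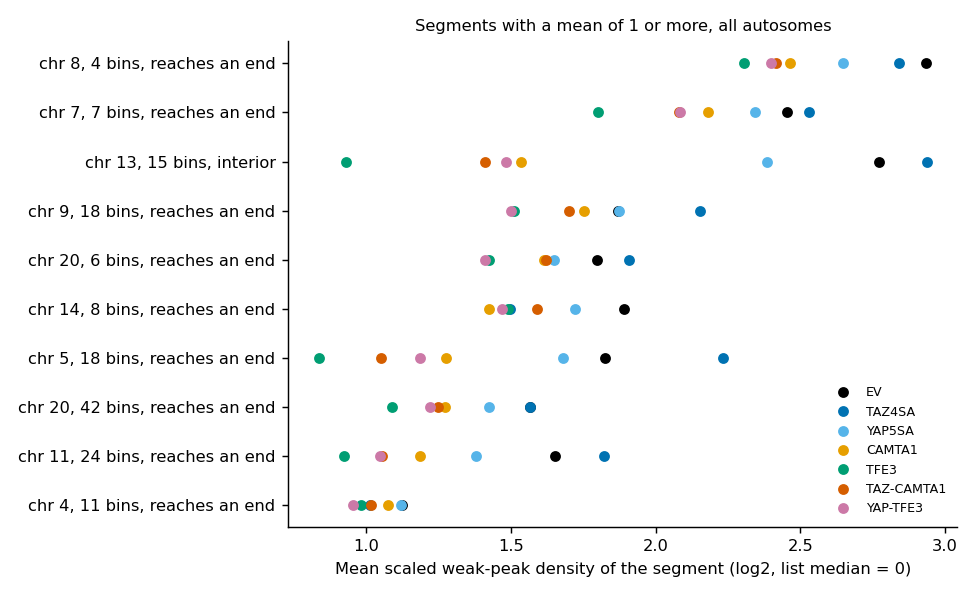
Mean scaled weak-peak density (horizontal axis, log2, 0 is the list's median bin) of the 10 autosomal segments with a mean of 1 or more over the lists, 1 row per segment and 1 point per list. The row of chromosome 13 is the interior one and has the widest spread, from 0.93 in TFE3 to 2.94 in TAZ4SA, and the chromosome 11 row is the ninth from the top.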

How the data were processed

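ATAC-seq was done on SW872 cells, 20 libraries in 7 groups, and the authors deposited 1 Genrich narrowPeak list per group. According to the study's methods, NGmerge trimmed adapters, BWA-MEM aligned the reads to GRCh37/hg19 and Genrich removed duplicates and blacklisted regions. The methods describe calling per replicate, and how libraries were combined into lists is not stated in the sources used here. The submitters' processing notes name Bowtie 0.12.2 and the mouse build mm8 instead. Peaks reach base 115105520 of chromosome 13, beyond its length of 114364328 in GRCh38. In the deposited files the signal column is the area under the curve, and the summit −log10 p is the caller's own. The deposited score was not used, and the deposited summit offset placed each peak. Depth per library was not analysed here.

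Peaks were binned and segmented in Python 3.11.15 with numpy 2.4.6 and pandas 2.3.3. Segments came from optimal partitioning (at least 3 bins each, penalty 3 times the noise variance times the natural log of the number of bins), checked on simulated data. Per chromosome, the 3 highest and 3 lowest used bins, every step, and the 3 sites of all 7 lists with the largest smallest area were named. The members, regions and named items were chosen with earlier results of these data known. Alternatives were other bin sizes, weak-peak thresholds, equal list lengths, bin filters, penalties, removal of the strong-peak trend, and single or omitted lists.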

Additional observations from a re-analysis of the deposited data

How the results depend on the processing

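No paired analysis was possible because each group has 1 list with no value per library. For that reason neither a replicate block nor leaving out single libraries was run. Leaving out 1 list at a time kept 8 steps on chromosome 11 and 3 on chromosome 13, the largest between 3.51 and 3.79 and between 5.102 and 5.356 on the log2 scale. Of 310 alternatives, 180 concerned the main values, of which 130 stayed within the SD over lists (or 1.5 times for a count), 49 moved further and 1 changed sign. The lists are not replicates, so that SD is no measure of error. The 130 include alternatives that could hardly move. A mean over lists shifts by less than their SD when any 1 list is left out. Placing peaks by their midpoints instead of their summits left the main values almost unchanged. The count of 130 is therefore no measure of how stable the results are. Removing the strong-peak trend turned the chromosome 13 density from -0.66 to 0.19, lowered that of chromosome 11 to 0.20 with 2 steps, and left largest steps of 0.69 on chromosome 11 and 1.59 on chromosome 13.

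Bins of 500 kb gave a chromosome 13 density of -0.46, 5 steps there and largest steps of 2.78 on chromosome 11 (strong 2.84) and 3.28 on chromosome 13 (strong 2.33), the last at 104.5 Mb. Bins that differed from EV, over the 6 lists, went from 167 to 375 on chromosome 11 and from 223 to 411 on chromosome 13. Bins of 2 Mb gave 65 and 100, and on chromosome 11 a density of 0.63, 4 steps and a largest step of 2.53 (strong 2.20). A weak-peak threshold of 4 left 22915 weak peaks on chromosome 11 and 12769 on chromosome 13, with 265 bins on chromosome 11 that differed from EV, and a threshold of 6 gave a strong-peak step of 4.78 on chromosome 13. Equal list lengths left 29313 and 16532 weak peaks and a largest chromosome 13 step of 2.89 (strong 1.89), now at 106 Mb.

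Using any bin with a peak gave a chromosome 11 density of 0.61 and a largest step of 4.76 (strong 4.94), and on chromosome 13, 6 steps with the largest 6.21, at 60 Mb. A penalty of 6 gave 4 steps on chromosome 11, the largest 2.47 (strong 2.21), and a largest chromosome 13 step of 3.11 (strong 2.14), and a penalty of 1.5 gave 6 steps on chromosome 13. In single lists, chromosome 11 had 5 steps in EV (largest 4.43), 4 in TAZ4SA (2.48) and 4 in YAP5SA (2.65), and chromosome 13 had 6 in EV (largest 4.27), with largest steps of 4.24 in TAZ4SA, 3.87 in TFE3 and 3.31 in YAP-TFE3. Keeping only bins with at least 20 weak peaks in EV and the other list together, chosen after seeing the data, left 106 bins on chromosome 11 that differed from EV. The cause of these shifts was not tested. The difference between the distal block and the segment after it stayed positive in all 22 alternatives, between 1.40 and 4.24 on the log2 scale.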

Other observations

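A further raised bin lay near the start of the chromosome 13 sequence, at 22 to 23 Mb. It was singled out after its values were seen. It held 80 weak peaks in EV, 54 in TAZ4SA, 64 in YAP5SA, 65 in CAMTA1, 34 in TFE3, 54 in TAZ-CAMTA1 and 89 in YAP-TFE3, while the bin before it held 17 in EV and 28 in YAP-TFE3 and the bin after it 6 and 7. Relative to the other autosomes its weak-peak density was 2.07 times in EV, 1.80 in YAP-TFE3 and 1.67 in TAZ4SA, and between 0.995 (TFE3) and 1.35 (CAMTA1) in the other lists.

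The largest sites open in all 7 lists, by the smallest area under the curve of any list, were chr13:64648851-64654321, chr13:80910596-80918247 and chr13:100630677-100638025. The first had an area of 39121 in EV, 34759 in TAZ4SA, 42439 in YAP5SA, 51150 in CAMTA1, 29267 in TFE3, 50510 in TAZ-CAMTA1 and 52971 in YAP-TFE3. Only the last of them lies in the distal block. On chromosome 11 they were chr11:118777583-118786629, chr11:118488086-118494726 and chr11:118786748-118797490, all within the end block and within 1 Mb of each other, with smallest areas of 25615, 18665 and 16824, each in TAZ4SA.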
